A study of Mus musculus with 34 samples.

Results

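Gm6502, A430089I19Rik, Gm3147 and Gm7971 are 4 of the 49686 gene symbols in the zygote and late 2-cell tables. They lie on chromosome 5 and were chosen by name because their level was higher in R442Q than in WT zygotes. Their zygote values are therefore given as a description, with no p-value. Each gene is reported alone and as the sum of the 4. GENCODE lists all 4 as protein coding, and the RefSeq names of the same gene records are Pramel40 for Gm6502, Pramel39 for A430089I19Rik, Pramel43 for Gm3147 and Pramel49 for Gm7971. All 4 thus belong to the PRAME-like family.

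PRAME-like genes encode leucine-rich repeat proteins related to human PRAME, an antigen of tumours and germ cells. Some PRAME family proteins serve as substrate receptors of cullin ubiquitin ligases. The family is expanded in the mouse into arrays of near-identical genes, and many members are expressed in the germ line and early embryo. The late 2-cell stage is when the mouse embryo turns on its own genome in a major wave, after a minor wave in the zygote.

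The libraries were single mouse embryos at 3 stages, made with SMART-seq2 cDNA and Tn5 tagmentation after the zona pellucida had been removed. Zygotes had been injected with mRNA for CHK1, a kinase of the DNA damage checkpoint, either wild type (WT) or the R442Q mutant, so WT embryos also carried injected CHK1 mRNA. There were 5 WT and 6 R442Q zygotes and 4 WT and 5 R442Q late 2-cell embryos, all labelled as receiving no inhibitor. The 7 WT and 7 R442Q blastocysts had all been cultured with a CHK1 inhibitor at 30 nM, and the labels name no strain or uninjected group among the embryos analysed here.

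Library totals were 7183632 to 11296522 counts in zygotes and 5727956 to 8916343 in late 2-cell embryos, while blastocysts had FPKM only. The summed level of 10 oocyte genes was 7961 to 10995 CPM (counts scaled to the library total) in zygotes. Of these genes Zp3 (86.1 to 139 CPM in WT, 24.8 to 57.4 in R442Q), Ooep (1661 to 2549 and 729 to 1328) and Zp1 (51.0 to 75.8 and 23.0 to 50.6) were lower and Dppa3 (2383 to 2596 and 2870 to 3241) was higher in every R442Q zygote than in every WT zygote. The injected gene Chek1 averaged 6236 CPM in WT and 6587 CPM in R442Q zygotes. The 100 most abundant genes took 32.8% to 36.0% of the counts in WT zygotes and 37.0% to 42.4% in R442Q zygotes, so this measure of the libraries also separated the groups. AY036118 was at 0 in all 5 WT zygotes and at 684 to 2820 CPM in the 6 R442Q zygotes. The part of these differences in the levels below was not tested.

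A430089I19Rik (ENSMUSG00000094560.1) occupies chr5:94302519-94306796 on the minus strand of GRCm38, and Gm6502 (ENSMUSG00000095718.2) lies next to it at chr5:94314435-94317255 on the plus strand. Gm3147 (ENSMUSG00000095503.4) is at chr5:94612069-94616342 and Gm7971 (ENSMUSG00000094043.2) at chr5:95590599-95594875, both on the minus strand. The 4 genes span 1292 kb. Their longest annotated transcripts have 1848 bases in 4 exons for the minus-strand genes and 1533 bases in 3 exons for Gm6502. The following 60 bases begin at each annotated start codon and show which of the 4 reads can tell apart. Capitals in the first 3 mark bases that differ among those 3 genes, and capitals in Gm6502 mark the 12 bases that differ from A430089I19Rik.
A430089I19Rik: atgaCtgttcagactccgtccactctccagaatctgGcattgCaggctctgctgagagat
Gm3147: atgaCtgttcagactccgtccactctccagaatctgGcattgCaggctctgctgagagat
Gm7971: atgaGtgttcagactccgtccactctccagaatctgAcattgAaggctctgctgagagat
Gm6502: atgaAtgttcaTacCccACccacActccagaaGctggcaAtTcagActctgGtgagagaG

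These stretches lie at chr5:94305556-94305615, chr5:94615102-94615161, chr5:95593636-95593695 and chr5:94314469-94314528, in exon 2 of the minus-strand genes and exon 1 of Gm6502. A430089I19Rik and Gm3147 were identical here. Over the whole 1848-base transcript the minus-strand genes differed at 11 positions, 9 of them in coding sequence, and were 99.5% to 99.8% identical in pairs. Gm6502 was 79.6% to 79.7% identical to them. Of all 50-base stretches of its transcripts, A430089I19Rik had 97.1% in another annotated gene, Gm3147 94.4%, Gm6502 94.5% and Gm7971 100%. Only 53 stretches of A430089I19Rik, 100 of Gm3147, 84 of Gm6502 and 0 of Gm7971 were unique. Counts of single members therefore depend on how reads from near copies were divided, and Gm7971 had no stretch of its own.

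Near copies were defined as genes that share at least 20% of their 50-base stretches with a member, or the reverse. There were 16 in the tables, 15 of them between 500 kb before the first and 500 kb after the last member. Each near copy shared 50-base stretches either with Gm6502 or with the minus-strand members, never with both, which gave sequence types. Gm6502 shared none with the other members. Near copies of different types were not compared with each other. The A430089I19Rik type had 9 genes in the window, all on the minus strand, and the Gm6502 type had 10, all on the plus strand. They formed 9 neighbouring pairs of a minus-strand gene followed by a plus-strand gene, with gaps of 5839 to 8883 bases between their GENCODE positions. A430089I19Rik and Gm6502 are such a pair, 7638 bases apart. Gm3147 is paired with Gm6509 at 7636 bases, and Gm7971 with Gm6348 at 7702 bases. The RefSeq model of Gm6502 runs from 94297993 to 94317202 and so overlaps A430089I19Rik on the other strand. In the same way the RefSeq model of Gm6509 overlaps Gm3147, and that of Gm6348 overlaps Gm7971. The models of Gm6346, Gm6351, Gm7682, Gm6468 and Gm7982 overlap their minus-strand partners too. Whether counting used strand is not given in the sources used here, so reads in those overlaps cannot be assigned with certainty.

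The 250 bases before each RefSeq start (GRCm38.p6) are shown for 1 gene of each sequence type, to show how far the starts of the types differ. Capitals mark TATAAA or CCAAT on either strand.
A430089I19Rik: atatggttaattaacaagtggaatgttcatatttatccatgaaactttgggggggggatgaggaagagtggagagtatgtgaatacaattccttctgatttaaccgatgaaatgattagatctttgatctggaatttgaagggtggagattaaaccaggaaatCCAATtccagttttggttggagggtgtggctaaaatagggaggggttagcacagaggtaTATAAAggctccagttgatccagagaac
Gm6502: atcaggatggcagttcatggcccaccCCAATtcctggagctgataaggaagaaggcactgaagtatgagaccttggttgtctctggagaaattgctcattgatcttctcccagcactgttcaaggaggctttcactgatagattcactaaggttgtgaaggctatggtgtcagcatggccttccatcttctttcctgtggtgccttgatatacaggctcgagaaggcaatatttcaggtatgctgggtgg

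The stretches lie at chr5:94306797-94307046 on the minus strand and chr5:94297743-94297992 on the plus strand. The Gm3147 stretch was 100% identical to that of A430089I19Rik over 248 aligned bases, and the Gm7971 stretch was 99.6% identical over 237. That of Gm6502 was 61.0% identical to A430089I19Rik. TATAAA began at position -28 from the start in A430089I19Rik, -30 in Gm3147 and -41 in Gm7971, which had another match on the reverse strand at -232. That motif was not found in Gm6502. All 4 held CCAAT, at -87 in A430089I19Rik and -224 in Gm6502. Over all 32851 RefSeq promoters of the table, searched on both strands from the same distance before the start to just after it, 13.6% held TATAAA and 37.4% held CCAAT. Gm6502 alone of the 4 held GGATTA, lying across the start, as did 7.06% of all promoters. Neither AGGTCA, held by 16.3% of all promoters, nor CACGTG, held by 7.15%, was found in any of the 4. A match is a match of letters and not a measured site.

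In zygotes the 4 genes together were low in WT embryos and higher in every R442Q embryo. The summed level was 0.653, 10.6, 3.76, 0 and 2.27 CPM in WT replicates 1 to 5, a mean of 3.46 ± 4.27 CPM (SD, n = 5). It was 36.4, 177, 31.3, 16.7, 24.1 and 37.9 CPM in R442Q replicates 1 to 6, a mean of 54.0 ± 60.9 CPM (SD, n = 6). The groups of the sum did not overlap, and the ratio of the means was 15.6, a log2 of 3.96. That log2 ratio was 5.01 without WT replicate 2 and 3.08 without R442Q replicate 2. R442Q replicate 2 was far above the other R442Q zygotes, which averaged 29.3 ± 8.86 CPM without it (SD, n = 5) and still lay above all WT embryos.

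Gm6502 had the lowest WT level of the 4. It was at 0 in WT replicates 1 to 4, where 3 counts would equal 0.345 to 0.405 CPM, and at 0.495 CPM in WT replicate 5. In R442Q replicates 1 to 6 it was at 18.1, 56.2, 8.47, 3.50, 4.22 and 9.78 CPM. All R442Q embryos lay above all WT embryos, and the 5 WT embryos held 4.38 estimated counts of Gm6502 in all against 803 in the 6 R442Q embryos. The edgeR log2 fold change of 7.34 ± 1.01 (SE) rests on those few WT counts and depends on the prior count.

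A430089I19Rik was at 0 in WT replicates 1, 2 and 4, at 2.01 CPM in replicate 3 and at 0.445 CPM in replicate 5. In R442Q replicates 1 to 6 it was at 11.4, 62.3, 11.4, 2.02, 10.4 and 6.50 CPM. The groups met closely at 1 point, since R442Q replicate 4 (2.022 CPM) was just above WT replicate 3 (2.012 CPM). The log2 fold change was 5.22 ± 0.97 (SE), 7.11 without WT replicate 3 and 4.17 without R442Q replicate 2.

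Gm7971 was at 0.653, 0.361, 0.841, 0 and 0 CPM in WT replicates 1 to 5 and at 4.70, 36.1, 6.24, 4.84, 8.82 and 14.1 CPM in R442Q replicates 1 to 6. Its groups did not overlap, and its log2 fold change was 5.15 ± 0.75 (SE). Gm16429 (Pramel36), a near copy that contains all of its stretches, had the same count as Gm7971 within 0.05 in 18 of 20 embryos, so these 2 genes are in effect 1 measurement.

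Gm3147 behaved differently from the other members in 1 WT embryo. It was at 0, 10.3, 0.908, 0 and 1.33 CPM in WT replicates 1 to 5 and at 2.17, 22.7, 5.20, 6.35, 0.643 and 7.51 CPM in R442Q replicates 1 to 6. WT replicate 2 was above 5 of the 6 R442Q embryos, and Gm3147 made up 96.6% of the members' sum there. The log2 fold change was 1.71 ± 0.93 (SE), 3.75 without WT replicate 2 and 0.96 without R442Q replicate 2.

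**Figure D1:**
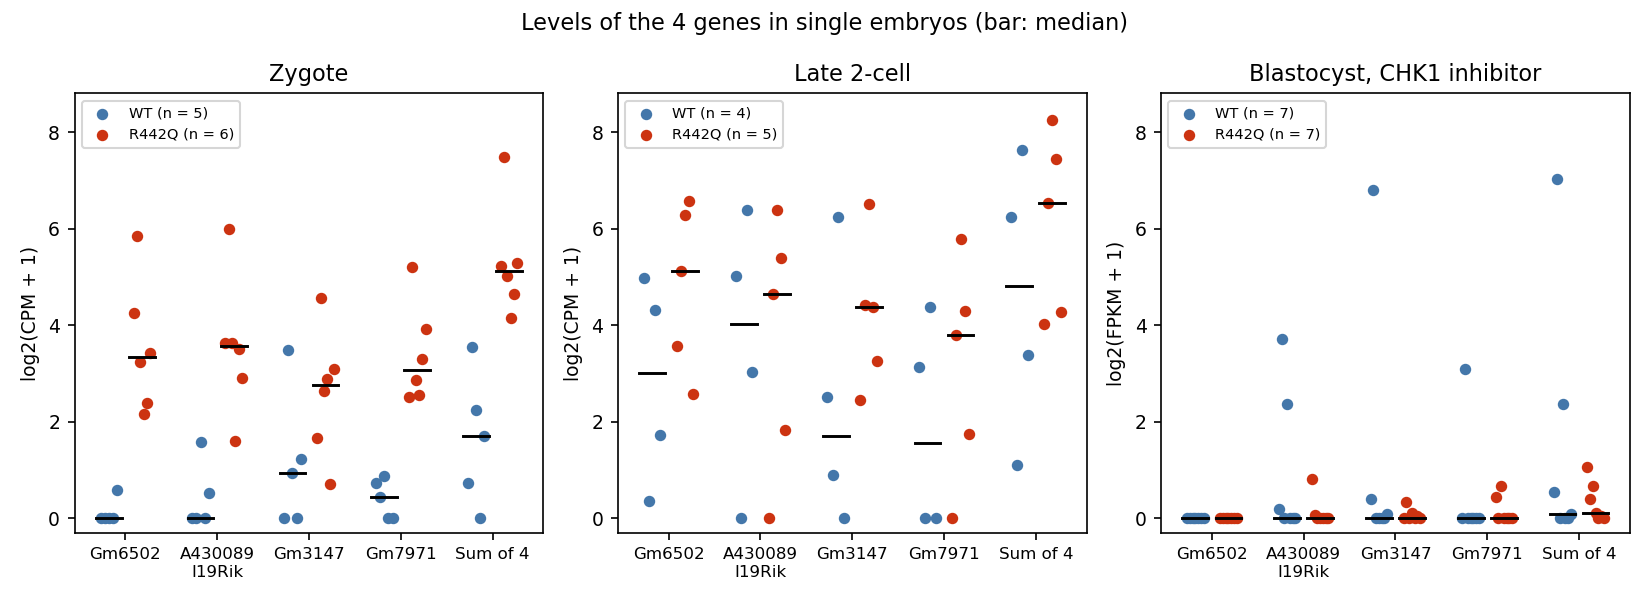
Level of each gene and of their sum in single embryos, as log2(CPM + 1) in zygotes and late 2-cell embryos and log2(FPKM + 1) in blastocysts; each point is 1 embryo and each bar a group median. The zygote groups of the sum did not overlap, late 2-cell groups overlapped for every gene, and the blastocyst sums were at most 1.1 FPKM except in WT replicates 2 and 4.

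Across all genes tested in zygotes, edgeR called 13.2% different at an adjusted p under 0.05, 6.3% as higher and 6.92% as lower in R442Q. Of the members, Gm6502, A430089I19Rik and Gm7971 were among the called genes and Gm3147 was not. Every R442Q zygote was above every WT zygote in those 3 members, and in 2.54% of the genes tested. The members were picked for this contrast and passed the filter on low counts through their level in the R442Q zygotes, so nothing is read from these counts.

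Near copies share reads with the members and are no independent measurement. Of the 16 near copies, 11 were called higher in R442Q zygotes, 0 were called lower, 1 was tested and not called, and 4 had too few counts. Their median log2 fold change over the 12 tested was 4.15, beside 0.01 over all 12420 genes, where a gene kept only through its R442Q level had to differ. Without R442Q replicate 2, chosen after seeing the data, 7 were tested and 6 called higher, beside 4.91% of all genes. Gm6502-type genes included Gm7682, at 0.907 ± 0.658 CPM in WT and 17.6 ± 13.9 CPM in R442Q zygotes (means ± SD), and Gm6509, at 1.67 ± 1.02 and 9.63 ± 7.52 CPM. BC061212 and Gm7978, of the A430089I19Rik type, had equal counts in all 20 embryos and stood at 0.640 ± 0.501 CPM in WT and 6.69 ± 5.57 CPM in R442Q zygotes.

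Summing the window genes of each type removes the division of reads among them. The near copy outside the window, which holds 23.5% of the Gm6502 stretches, is left out, so reads shared with it may still be divided. The A430089I19Rik type summed to 7.40 ± 7.24 CPM in WT (range 1.39 to 19.7, n = 5) and 76.8 ± 79.6 CPM in R442Q zygotes (range 22.1 to 237, n = 6). The Gm6502 type summed to 3.77 ± 0.47 CPM in WT (range 3.17 to 4.31) and 77.0 ± 77.3 CPM in R442Q (range 23.6 to 230). Neither type overlapped between the groups, but both sums hold members chosen from this contrast and near copies that share their reads. This is a description, beside 2.54% of the genes tested in which every R442Q zygote was above every WT zygote. Replicate 2 was the highest and replicate 4 the lowest R442Q zygote for both types, whose members share no 50-base stretch. Among WT zygotes the types differed in order, with replicate 2 highest and 4 lowest for the A430089I19Rik type and replicate 3 highest and 5 lowest for the Gm6502 type. Without replicate 2 the R442Q means were 44.7 ± 14.7 and 46.5 ± 22.1 CPM (SD, n = 5).

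**Figure D2:**
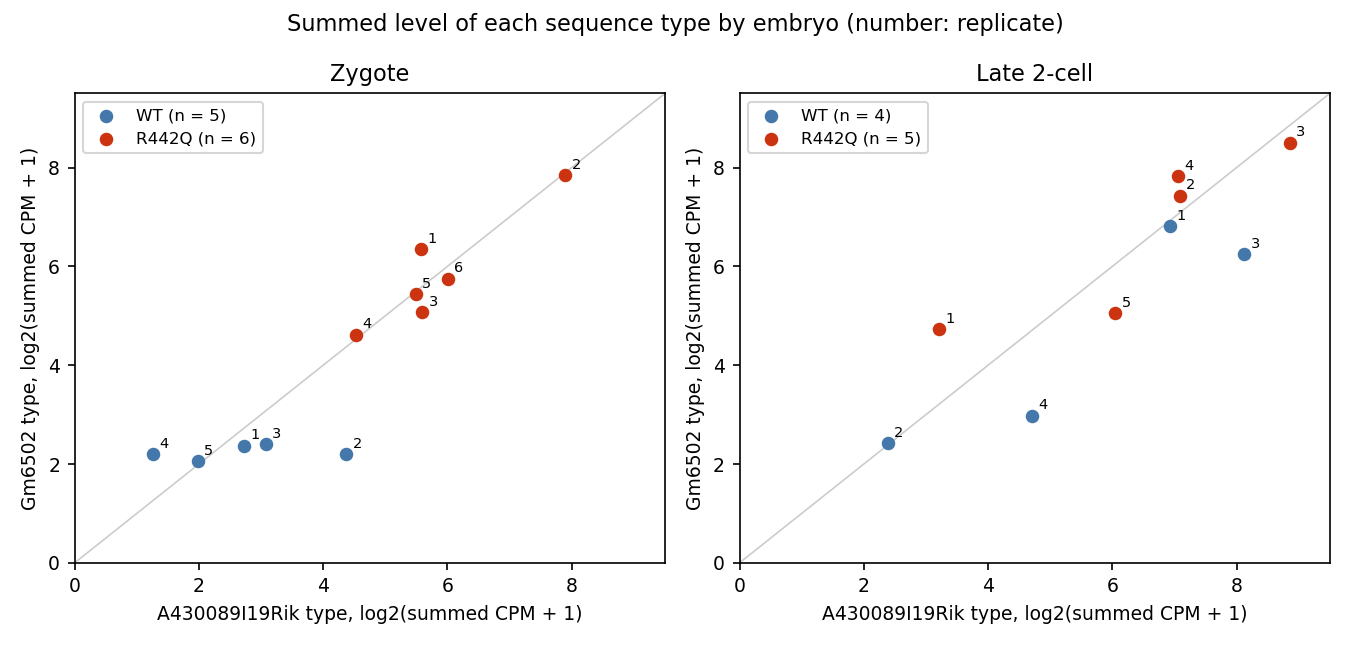
Summed level of the A430089I19Rik type (horizontal) and of the Gm6502 type (vertical) in each zygote and late 2-cell embryo, as log2(summed CPM + 1), with the replicate number beside each point and a line of equality. R442Q zygotes lay above all WT zygotes on both axes, and late 2-cell embryos of both genotypes were spread along the line.

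The window held 46 annotated genes, all in the tables, of which 27 were neither members nor near copies. Of these 27, 16 were tested in zygotes, 1 was called higher and 2 lower in R442Q, beside 6.3% and 6.92% of all genes, and their median log2 fold change was -0.02. The called genes were Gm16513, at 6.39 ± 4.09 CPM in WT and 20.3 ± 10.1 CPM in R442Q zygotes, E330014E10Rik, at 177 ± 21.3 and 103 ± 26.6 CPM, and Cnot6l, a subunit of the CCR4-NOT deadenylase, at 140 ± 24.1 and 97.8 ± 9.16 CPM. Gm16513 was not called without R442Q replicate 2. In 0 of the 27 was every R442Q zygote above every WT zygote, beside 2.54% of all genes tested. Of the 11 not tested, Gm7663 averaged 0.317 CPM in WT and 2.45 CPM in R442Q zygotes, Gm7961 0.685 and 2.57 CPM, and Gm42662, which shares no stretch with a member, 0.235 and 1.57 CPM. All 3, chosen after their values were seen, were at 0 in R442Q replicate 4 and highest in R442Q replicate 2, at 8.88, 8.57 and 7.06 CPM.

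Neighbours with a high zygote level stood between the pairs. AA792892, which begins beyond Gm6502, was at 200 ± 29.9 CPM in WT and 149 ± 27.3 CPM in R442Q zygotes. Gm3259, Gm6205 and Gm6367 averaged 259, 221 and 146 CPM in WT zygotes and 255, 190 and 133 CPM in R442Q zygotes, and at the late 2-cell stage 18.9, 18.4 and 16.1 CPM in WT. Other neighbours were near 0 in zygotes and high later. Gm3183 went from 2.15 CPM in WT zygotes to 1164 ± 213 CPM a stage later (n = 4), and Gm3139 from 1.64 to 260 ± 80.3 CPM. In R442Q zygotes Gm3183 was at 2.32 ± 1.75 CPM and Gm3139 at 1.25 ± 1.15 CPM, close to their WT levels.

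**Figure D3:**
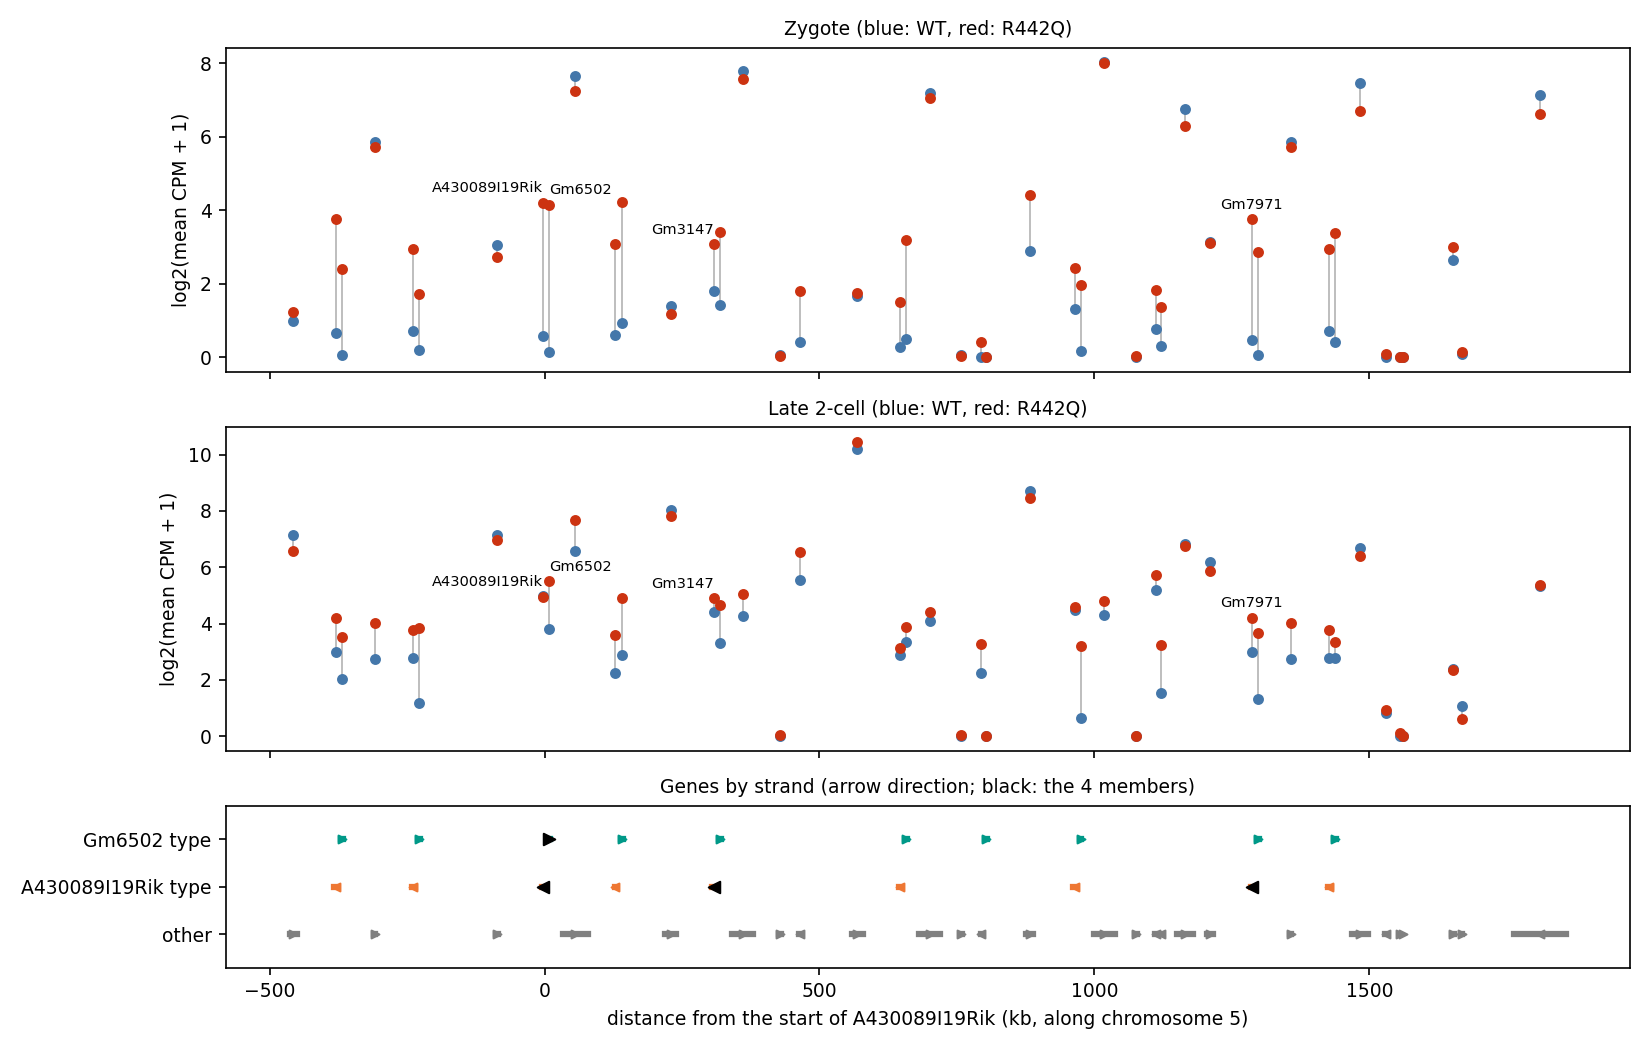
Mean level of each gene of the window by its distance from the start of A430089I19Rik in kb, as log2(mean CPM + 1) in WT (blue) and R442Q (red), with the strand and sequence type of each gene below; the line joins the groups of 1 gene. In zygotes all genes of the paired types had WT means of at most 2.50 CPM, and most had a red point well above the blue one, a gap not seen in the abundant neighbours.

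At the late 2-cell stage the members were present in embryos of both genotypes, and the spread within a genotype was larger than the difference between them. The summed level was 74.3, 1.16, 196 and 9.44 CPM in WT replicates 1 to 4, a mean of 70.3 ± 90.1 CPM (SD, n = 4). It was 15.3, 91.3, 304, 174 and 18.4 CPM in R442Q replicates 1 to 5, a mean of 121 ± 121 CPM (SD, n = 5). The groups overlapped, and the ratio of the means was 1.72, a log2 of 0.78. That log2 ratio was 2.09 without WT replicate 3 and 0.09 without R442Q replicate 3. From this stage on a library holds several cells, so fewer expressing cells and less RNA per cell cannot be told apart.

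Gm6502 was at 30.5, 0.282, 18.9 and 2.30 CPM in WT and at 10.8, 34.1, 77.3, 94.3 and 4.94 CPM in R442Q late 2-cell embryos. Its log2 fold change was 1.87 ± 0.99 (SE), with a 95% interval of -0.25 to 3.99 and an edgeR adjusted p of 0.304 over all genes tested. A430089I19Rik was at 31.4, 0, 83.1 and 7.15 CPM in WT and at 0, 24.1, 82.5, 41.1 and 2.55 CPM in R442Q. Its log2 fold change was 0.02 ± 1.27 (SE; interval -2.70 to 2.74; edgeR adjusted p 0.995), and its sign changed when single embryos were left out.

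Gm3147 was at 4.75, 0.874, 74.7 and 0 CPM in WT and at 4.47, 20.3, 90.5, 19.9 and 8.53 CPM in R442Q late 2-cell embryos. Its log2 fold change was 0.53 ± 1.21 (SE; interval -2.06 to 3.13; edgeR adjusted p 0.848). Gm3147 rested on replicate 3 of each genotype, since its log2 fold change was 3.99 without WT replicate 3 and -0.44 without R442Q replicate 3. Gm7971 was at 7.73, 0, 19.7 and 0 CPM in WT and at 0, 12.9, 53.8, 18.6 and 2.35 CPM in R442Q, with a log2 fold change of 1.38 ± 1.43 (SE; interval -1.68 to 4.44; edgeR adjusted p 0.628).

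**Figure D4:**
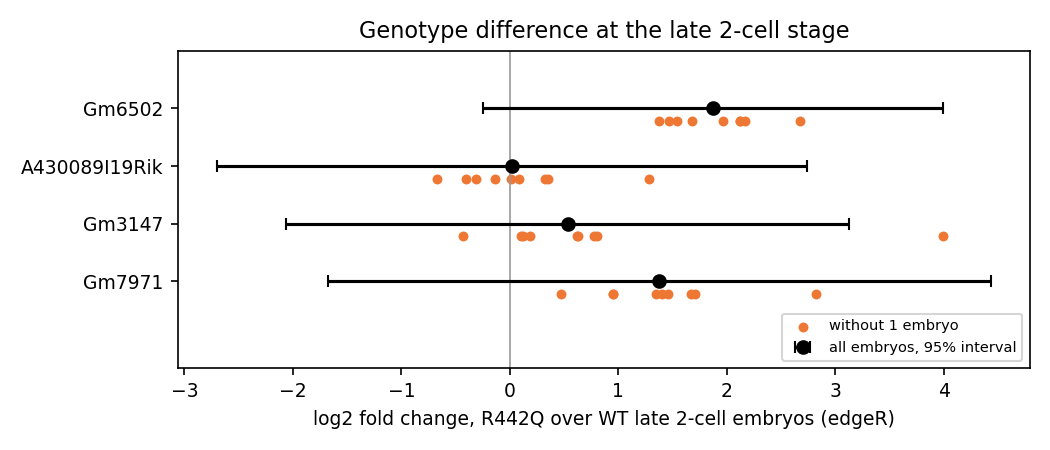
Log2 fold change of each gene between R442Q and WT late 2-cell embryos from edgeR (black, with 95% interval) and the values with 1 embryo left out (orange). All 4 intervals include 0, and A430089I19Rik and Gm3147 change sign when some single embryos are left out.

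None of the 4 genes was called at the late 2-cell stage, where edgeR called 4.18% of the genes tested, 1.22% as higher and 2.95% as lower in R442Q. In 3.67% of the genes tested, and in 0 members, every R442Q embryo was above every WT embryo. Without any single embryo the lowest adjusted p of a member was 0.108, for Gm3147. The intervals are wide, so the data neither show a late 2-cell difference nor bound it closely. In simulated data of this size 46.5% of 4-fold changes were recovered at the late 2-cell stage. Whether the genotype difference itself changed between zygote and late 2-cell was not tested, because the zygote contrast chose the genes.

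The 16 near copies gave 14 tested and 0 called at the late 2-cell stage, with a median log2 fold change of 1.46 beside 0.07 over all genes. Of the 27 other genes of the window 20 were tested and 0 called, with a median of 0.42. R442Q replicate 3 was highest and replicate 1 lowest of its genotype for both types. WT replicate 2 was the lowest WT embryo for both, while the highest was replicate 3 for the A430089I19Rik type and replicate 1 for the Gm6502 type. The A430089I19Rik type ranged from 4.24 to 279 CPM in WT and 8.24 to 463 CPM in R442Q, and the Gm6502 type from 4.35 to 112 and from 25.5 to 363 CPM.

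Some library measures differed along with the sum at this stage. R442Q replicate 3, with the highest sum, had 16211 genes at an FPKM of 1 or more, against 11984 to 13475 in the other R442Q embryos. Among those the number did not follow the sum, since replicate 4 (174 CPM) had 12789 genes and replicate 5 (18.4 CPM) had 13306. WT replicates 1 and 3, with the higher sums, had 14201 and 14210 such genes, and WT replicates 2 and 4 had 13049 and 13225. The summed level of 12 cumulus cell markers was 48.5 CPM in R442Q replicate 3 and 26.5 CPM in replicate 5, which had a low sum of the members, against 7.03 to 11.2 CPM in the other R442Q embryos and 4.85 to 15.8 CPM in WT. The 8 late 2-cell markers summed to 157 to 1865 CPM in WT and 964 to 2754 CPM in R442Q embryos. The 10 oocyte genes summed to 2297 to 2745 CPM in WT and 3393 to 4968 CPM in R442Q embryos, with no overlap. Of these genes Dppa3 (1255 to 1883 CPM in WT, 2251 to 3804 in R442Q), Ooep (30.4 to 52.9 and 99.8 to 265) and Zp2 (20.1 to 60.8 and 61.5 to 65.8) were higher in every R442Q embryo than in every WT embryo. The part of the number of genes, of the cumulus, late 2-cell or oocyte markers or of the embryos' exact age in these levels was not tested.

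In blastocysts the sum was at most 1.1 FPKM in all but 2 WT embryos, replicates 2 and 4. The summed level in FPKM, fragments scaled to transcript length and library size, was 0.45, 130, 0, 4.13, 0, 0 and 0.06 in WT replicates 1 to 7. It was 1.1, 0.31, 0.59, 0.08, 0, 0.03 and 0 in R442Q replicates 1 to 7. The medians were 0.06 and 0.08, and the groups overlapped. In WT replicate 2 Gm3147 was at 110 FPKM, A430089I19Rik at 12.1 and Gm7971 at 7.57, while Gm6502 was at 0 in all 14 blastocysts. Both types were highest in that embryo, at 210 FPKM for the A430089I19Rik type and 47.6 FPKM for the Gm6502 type, although Gm6502 itself was listed at 0 there. The blastocyst data list 51734 gene symbols, against 49686 at the earlier stages. Of these symbols 92.1% and 98.4% are in GENCODE. The part of this difference in the values of single near-identical genes, such as the 0 of Gm6502, was not tested. WT replicate 2 had 11685 genes at an FPKM of 1 or more, within the 9852 to 12191 of the WT group, but stood apart in its marker sums. The 10 oocyte genes summed to 11038 FPKM there, against 1884 to 4638 in the other WT blastocysts, nearly all of it Dppa3 (up to 11007 FPKM in WT), which blastocysts also express, while Gdf9 and Bmp15 were at 0 in every WT blastocyst. There the 8 blastocyst markers summed to 24448 FPKM, against 3470 to 12545. The 8 late 2-cell markers summed to 5.25 FPKM there, against 0 to 2.54 in the others. The part of these differences in the members' level was not tested.

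No member passed the filter on low values in blastocysts, where limma called 0.00885% of the genes tested and every R442Q embryo was above every WT embryo in 0.354%. Without that filter A430089I19Rik had a difference of -0.77 ± 0.55 on the log2(FPKM + 1) scale (SE; limma adjusted p 0.799), Gm3147 of -0.97 ± 0.90 (limma adjusted p 0.799) and Gm7971 of -0.29 ± 0.42 (limma adjusted p 0.850). These 3 negative values come largely from WT replicate 2. Without it the mean summed FPKM of WT was 0.773 ± 1.65 (SD, n = 6), beside 0.301 ± 0.413 in R442Q (SD, n = 7).

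Set in order by the mean summed FPKM, R442Q late 2-cell embryos came first at 78.0 ± 78.0 (SD, n = 5), then WT late 2-cell at 42.0 ± 52.7 (n = 4) and R442Q zygotes at 34.1 ± 38.8 (n = 6). WT blastocysts followed at 19.2 ± 48.9 (n = 7), then WT zygotes at 2.07 ± 2.54 (n = 5) and R442Q blastocysts at 0.30 ± 0.41 (n = 7). Each group in this order overlapped the next in range. The place of the WT blastocysts rests on replicate 2, since their mean was 0.773 without it, below WT zygotes. R442Q zygotes, at 10.3 to 113 FPKM, lay within the range of WT late 2-cell embryos, at 0.71 to 115 FPKM. The stages were deposited as separate tables, so stage and table cannot be told apart. In mean FPKM, Gm6502 led in R442Q zygotes (12.2 ± 14.6) and R442Q late 2-cell embryos (32.5 ± 29.3). A430089I19Rik led in WT late 2-cell embryos (17.4 ± 21.4). Each of these means lay within the range of another member. Gm3147 led in WT zygotes (1.49 ± 2.61), where its mean was above every value of the other members and rested on replicate 2, at 6.12 FPKM.

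Genes of the 2-cell wave gave a wider frame. Of 36 listed genes, 25 were tested in zygotes, and 13 were called higher in R442Q, beside 6.3% of all genes. A gene kept by the filter only through its R442Q level had to differ, here as among the near copies. Among the genes called, the transcription factor gene Zscan4c changed by a log2 of 3.52 ± 0.74 (SE), Zfp352 by 2.26 ± 0.56, and Usp17la, a deubiquitinase gene, by 2.75 ± 0.43. Without R442Q replicate 2 the count was 12. Tcstv1 (-0.45 ± 0.22), Tcstv3 (-0.44 ± 0.28), Obox5 (0.09 ± 0.08) and Nr5a2 (-0.10 ± 0.20) were not called. At the late 2-cell stage 35 were tested, and the median log2 fold change was 1.01 beside 0.07 over all genes.

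Other PRAME-like genes were found by symbol. Of 17 with Pramel, Pramef or Oog symbols, 10 were tested in zygotes, 2 were called higher (Pramef25 at 2.35 ± 0.74 and Pramef8 at 0.47 ± 0.15), 1 lower (Pramef17 at -0.85 ± 0.27), beside 6.3% and 6.92% of all genes, and the median was -0.06. Oog1 to Oog4, oocyte-expressed family members, ranged from -0.20 to 0.08. The log2 fold change of Pramel4 was 3.18 ± 1.06, and it was not called. At the late 2-cell stage 16 were tested and 0 called.

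The genes whose level followed the members' sum most closely from embryo to embryo were found by Pearson's r over the 20 zygotes and late 2-cell embryos, after each stage and genotype had been centred on its mean. Outside the members and near copies the first 5 of 15271 genes were Emilin3, Eif5a2, Gm47985, Cyb5a and Me1, with r from 0.87 to 0.88. The embryos share stage and depth, and this r is a description. Emilin3 encodes an extracellular matrix protein, Eif5a2 a translation factor, Cyb5a cytochrome b5 and Me1 malic enzyme. In zygotes Eif5a2 was at 0.953 ± 0.614 CPM in WT and 3.30 ± 0.564 CPM in R442Q, while Emilin3 was at 0.569 ± 0.547 and 0.414 ± 0.414 CPM, so likeness among embryos did not mean the same difference between genotypes. Among the first 100 genes 12 lay in the window. They were the members, which are parts of the sum, 6 near copies, which share reads with them, and Gm42662 and AA792892.

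Other cell types were checked in zygotes by their markers. The 12 cumulus cell markers summed to 45.3 to 59.3 CPM in WT and 34.6 to 47.6 CPM in R442Q zygotes. Most of this was Cyp19a1, with a mean of 39.8 CPM in WT and 27.4 CPM in R442Q. Others of the list had higher means in R442Q, such as Tnfaip6 (0.0707 and 1.15 CPM), Vcan (0.286 and 1.02 CPM) and Col4a1 (2.54 and 3.55 CPM), while Amh was at 0 in every zygote. The 7 sperm genes summed to 2.03 to 7.06 CPM in WT and 2.86 to 8.61 CPM in R442Q, and Prm1 was at 0 in every WT zygote and at most 0.136 CPM in R442Q. The part of other cells in the members' levels was not tested.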

How the data were processed

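The values deposited by the authors for the 2 earlier stages are estimated counts per gene symbol, not normalized. Per the submitters' processing notes, RSEM and mm10 were used, with no version given. FPKM for all 3 stages was normalized by the authors to length and library size, per the deposited tables. Symbols, positions and transcripts came from GENCODE M21 (GRCm38).

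Counts were rounded and tested stage by stage with edgeR 4.0.16 (TMM, filterByExpr with minimum count 10, quasi-likelihood test, R 4.3.3). Blastocysts were tested with limma 3.58.1 on log2(FPKM + 1), for genes at FPKM 1 or more in 7 embryos. DESeq2 1.42.0 was an alternative. P-values were Benjamini-Hochberg adjusted over all genes tested, with a threshold of 0.05. CPM is counts scaled to the library total. Tests were checked on simulated data, where 99.5%, 46.5% and 80.5% of 200 genes changed 4-fold were recovered in zygotes, late 2-cell embryos and blastocysts, among 12340, 13661 and 10959 genes tested.

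The members and lists were chosen with earlier results of these data known. Named genes were the members, genes of the chromosome 5 window and near copies (by counts, named from 10 CPM in a group, except Gm42662, which was below it in every group), PRAME-like symbols, the 2-cell list and the 5 most alike genes. Nothing in the labels says that embryos of a group came from separate matings, so p-values measure the spread between these embryos. Floors of 3 counts cover counting error only. The precision of blastocyst values is not known, since their depth in counts is unknown. 1 gene of the 2-cell list is not reported here.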

Additional observations from a re-analysis of the deposited data

Results flagged for a closer look

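A single embryo stood far from the rest of its group in 16 of the 28 sets of values examined. The sets share embryos and sequence, so they are not independent. The measure was the gap to the nearest embryo over the range of the group (Dixon's 95% limit). That limit sets apart about 1 in 20 sets by chance only where values are normally distributed. It was used here on CPM and FPKM without a log scale, and these values were skewed. A set in which all embryos but 1 had the same value was flagged by construction. The count of 16 is therefore a description and is not compared with chance.

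R442Q zygote replicate 2 stood apart for the sum (177.3 CPM), Gm6502 (56.24 CPM), A430089I19Rik (62.25 CPM), Gm3147 (22.66 CPM) and Gm7971 (36.15 CPM). Among WT zygotes, replicate 2 did so for Gm3147 (10.27 CPM), replicate 3 for A430089I19Rik (2.012 CPM) and replicate 5 for Gm6502 (0.495 CPM), the last in a group otherwise at 0.

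At the late 2-cell stage Gm3147 stood apart in replicate 3 of both genotypes, at 74.66 CPM in WT and 90.53 CPM in R442Q. Among WT blastocysts replicate 2 stood apart for the sum (130 FPKM), Gm3147 (110.3 FPKM), A430089I19Rik (12.13 FPKM) and Gm7971 (7.57 FPKM). Among R442Q blastocysts A430089I19Rik stood apart in replicate 1 at 0.75 FPKM and Gm3147 in replicate 2 at 0.26 FPKM.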

How the results depend on the processing

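The zygote sum stayed higher in R442Q under all 15 alternatives run, with a log2 ratio of 3.08 to 5.01 beside 3.96, and the 4 single log2 fold changes stayed positive under all 16. On the log2(FPKM + 1) scale, which understates changes of low genes, Gm6502, A430089I19Rik and Gm7971 were at 3.06, 2.60 and 2.46, and without single WT embryos Gm6502 reached 10.2 and A430089I19Rik 7.11. Zygote calls numbered 1643, and 1125 to 1718 with 1 embryo left out. Of these, 783 were higher and 860 lower, but 411 and 1231 with limma on FPKM. Late 2-cell calls numbered 580, with 1854 by DESeq2, 889 with no filter on low counts and 142 to 891 with 1 embryo left out (without WT replicate 2 and without R442Q replicate 3). No member was called at that stage under any alternative. The late 2-cell log2 ratio of the sum ran from 0.09 to 2.09 beside 0.78. A430089I19Rik reversed to -0.06 with no filter, and ran from -0.68 to 1.29 with 1 embryo left out; Gm3147 ran from -0.44 to 3.99. Blastocyst calls numbered 1 by limma, 0 with no filter (1246 at an unadjusted p under 0.05) and 0 to 30 with 1 embryo left out (30 without WT replicate 7). The blastocyst log2 ratio of the sum was -5.995, -4.01 with the near copies added (chosen after seeing the data), and -6.84 to -1.36 with 1 embryo left out, the last without WT replicate 2. The cause of these changes was not tested. The replicate numbers come from the sample titles, and the submitters' descriptions number some zygotes and late 2-cell embryos otherwise. Same-numbered embryos correlated at -0.057 to 0.062 in zygotes, -0.14 to 0.20 at the late 2-cell stage and -0.17 to 0.20 in blastocysts. Embryos with different numbers were not compared, so these values do not settle whether embryos were paired. With the title number as a replicate block, calls were 1205 in zygotes, 49 at the late 2-cell stage and 0 in blastocysts (890 at an unadjusted p under 0.05).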
